A study of Mus musculus with 18 samples.

Results

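The genes described here are 10 that mature pancreatic beta cells keep low or that mark their loss of identity: Ldha, Slc16a1, Acot7, Oat, Mgst1, Cat, Smad3, Pdgfra, Igfbp4 and Aldh1a3. They were chosen by symbol, from probe sets that the platform annotation assigns to exactly 1 gene, and each of the 10 was measured by 1 probe set among 22180 genes. Islet RNA was measured on 18 single-colour arrays, in 6 groups of 3 samples from C57BL/6 mice aged 16 weeks. The mice of the TRAF3 knockout (RIPCre; TRAF3loxP/loxP) and of the TRAF2 knockout (RIPCre; TRAF2loxP/loxP) carry homozygous floxed alleles and Cre recombinase under the rat insulin promoter, which is active in beta cells. Their controls were floxed littermates, for which the labels give neither the floxed gene nor the presence or absence of Cre. Mice of each genotype ate a high-fat diet (HFD, 45% of energy from fat) for 8 weeks starting at 8 weeks of age, or chow. The genotypes follow the sample labels, because the series text names TRAF2 for both knockouts. Mice of both sexes were used, and whether samples come from separate animals is not stated, so p-values measure the spread between these samples, which may be technical. Both TRAF proteins hold NIK, a kinase of the NF-kB pathway, in check, and the series asks what lasting NIK activity does to the beta cell.

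Most cells express housekeeping enzymes and transporters that beta cells repress, and such genes are called disallowed. Lactate dehydrogenase A and the monocarboxylate transporter MCT1 (Slc16a1) are the textbook cases: with both kept low, glucose carbon enters the mitochondria instead of leaving as lactate, and circulating pyruvate or lactate does not trigger insulin release. Aldh1a3, an enzyme that makes retinoic acid, is low in healthy mature beta cells and is used as a marker of beta cells that lose their identity in diabetic mice. Whole islets also hold other endocrine cells, vessels, macrophages and mesenchyme, and duct fragments can come with them, so a transcript that beta cells repress may be read from such cells.

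The stretches before the start sites of Ldha, Slc16a1 and Mgst1, whose differences between chow-fed TRAF3 knockout and control islets passed under every alternative tried, are shown as 250 bases 5′ to 3′ ending 1 base before the start (RefSeq, build GRCm38.p6, all on the plus strand). They lie at chr7:46845554-46845803 for Ldha, chr3:104638414-104638663 for Slc16a1 and chr6:138140277-138140526 for Mgst1. Capitals mark ACGTG read on either strand, the core bound by hypoxia-inducible and related factors.
Ldha: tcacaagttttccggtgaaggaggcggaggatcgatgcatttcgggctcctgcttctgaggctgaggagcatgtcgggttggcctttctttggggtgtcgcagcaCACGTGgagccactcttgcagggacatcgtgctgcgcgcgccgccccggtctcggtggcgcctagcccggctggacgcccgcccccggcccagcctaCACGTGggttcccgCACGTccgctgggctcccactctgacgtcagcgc
Slc16a1: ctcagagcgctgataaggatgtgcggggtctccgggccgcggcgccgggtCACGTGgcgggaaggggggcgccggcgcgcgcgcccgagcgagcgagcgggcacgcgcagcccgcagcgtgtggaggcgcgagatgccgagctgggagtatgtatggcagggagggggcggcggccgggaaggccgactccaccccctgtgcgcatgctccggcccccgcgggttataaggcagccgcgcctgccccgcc
Mgst1: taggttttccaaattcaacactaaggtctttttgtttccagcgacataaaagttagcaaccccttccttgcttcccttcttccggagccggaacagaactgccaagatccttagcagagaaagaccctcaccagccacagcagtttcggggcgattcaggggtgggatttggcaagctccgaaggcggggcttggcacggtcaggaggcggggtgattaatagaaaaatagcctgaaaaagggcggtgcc
Ldha held 5 matches here, counting both strands, since CACGTG holds the core on each strand. Slc16a1 held 2 before its start, which share 1 CACGTG, and 1 after it, while this stretch of Mgst1 held none; Ldha and Mgst1 each have a second RefSeq start, whose window held none. RefSeq entries were found for 9 of the 10 genes (not Aldh1a3), and in windows of 250 bases before to 50 bases after the start ACGTG was present in 3 of them (Ldha, Slc16a1 and Oat), against 19.6% of all 32851 windows. The AP-1 motif TGACTCA was in 0 of the 9 genes and 5.2% of windows, the nuclear receptor motif AGGTCA was in Cat and in 16.3% of windows, and the canonical NF-kB motif was in 0 of the 9 and 0.155% of windows. A gene was counted if any of its windows held the motif, so shares of genes and shares of windows are unlike measures. A match is a string of letters and no measured site.

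Ldha, Slc16a1, Mgst1 and Acot7 rose in the chow-fed TRAF3 knockout, 1.86- to 4.38-fold over chow controls, where 11.0% of all genes passed. All 10 genes had a positive difference, and the Acot7 call was lost in 4 of 6 fits without 1 array. On HFD none of the 10 passed the test between either knockout and control, where 2.52% (TRAF3) and 0.252% (TRAF2) of all genes did. Within the TRAF3 knockout the same 4 genes were lower on HFD than on chow, where 8.67% of all genes passed. Each of these diet calls was lost in 2 to 4 of 6 fits without 1 array. In the TRAF2 knockout no member passed on either diet, and on chow 0.298% of all genes did. Values are log2 as deposited, the tests are limma's across all 22180 genes, and a change counted as passing at an adjusted p under 0.05.

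**Figure D1:**
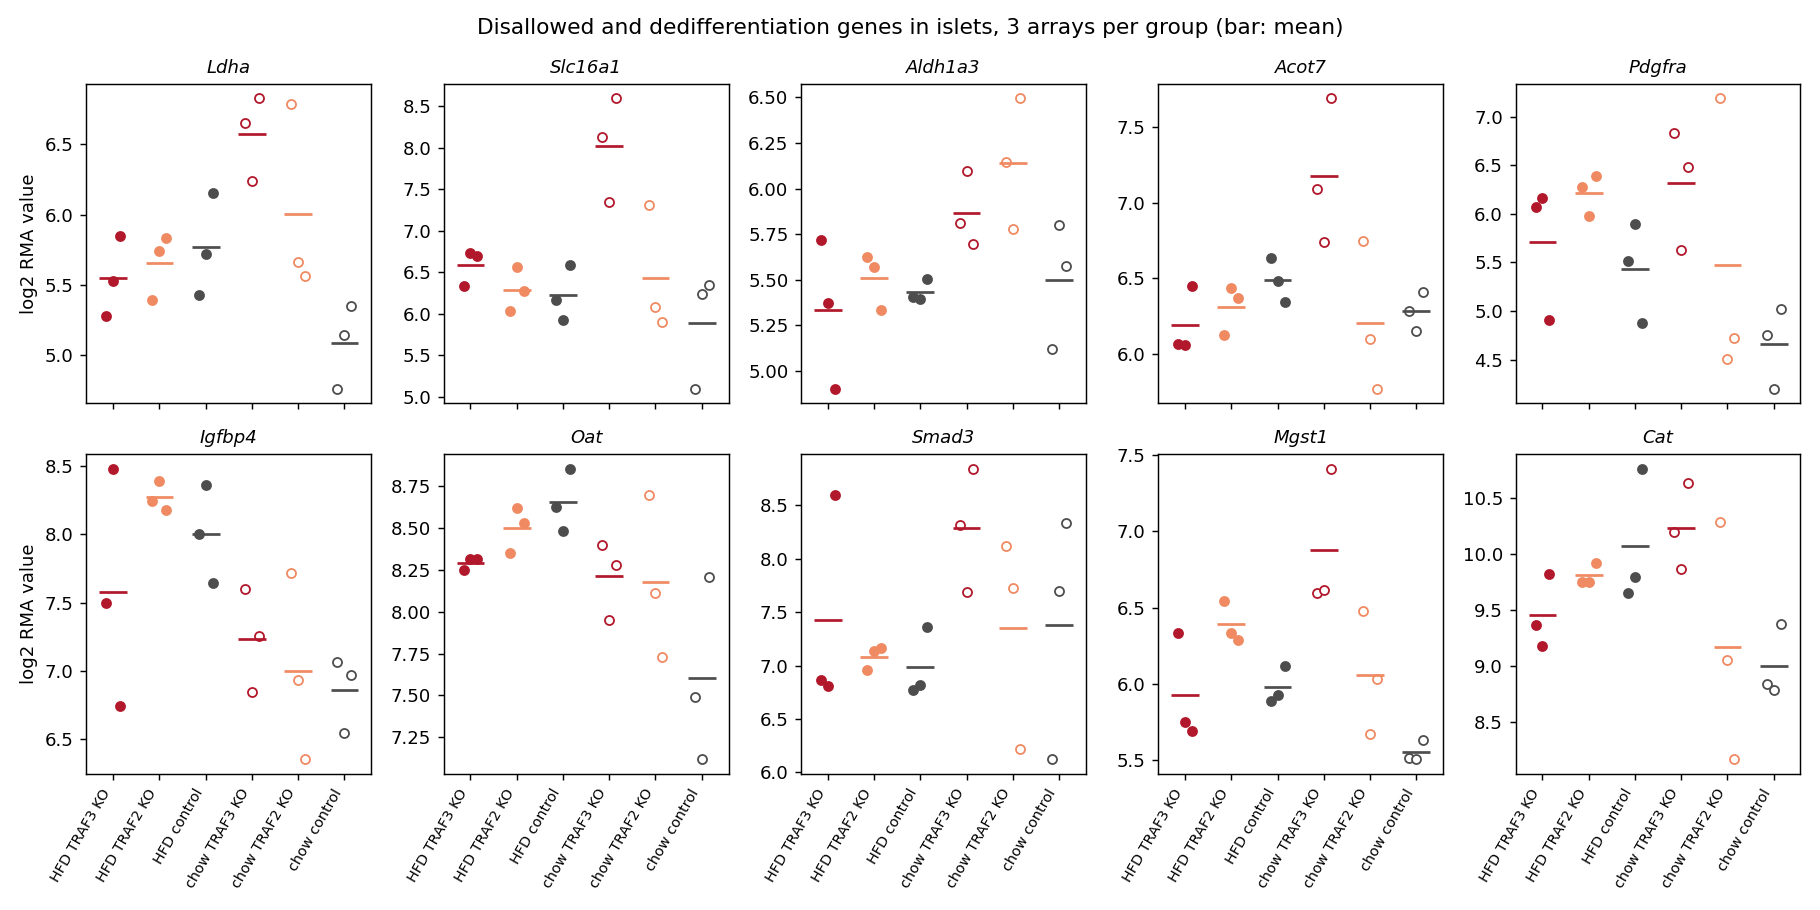
Log2 values of the 10 genes (vertical axes, 1 panel a gene) on the 18 arrays, with HFD groups filled, chow groups open and a bar at each group mean of 3 arrays. The 3 chow TRAF3 knockout arrays lie between 7.35 and 8.60 for Slc16a1, above the other 15 arrays, and the first chow TRAF2 knockout array stands above its group for Ldha, Pdgfra and Cat.

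A few facts about the arrays bear on these values. Across genes, pairs of arrays of 1 group had Pearson's r of 0.9595 to 0.993. By Xist and Y-linked genes, each chow group held 2 male arrays and 1 female array (replicate 1). The HFD TRAF3 and TRAF2 knockout groups held 1 male array each and the HFD controls held 0, so HFD and chow differ in sex as well, most of all in controls. Of the lymphocyte scores, those of HFD TRAF3 knockout replicate 2 (1.94) and chow TRAF2 knockout replicate 1 (2.08) were the highest, and the members' values without each are given beside the counts below. Traf2 was read by a probe set over its transcript, which is no check of the floxed deletion, and the TRAF2 knockout did not pass against control in it on HFD (log2 difference 0.17 ± 0.14 SE, limma adjusted p = 0.975) or on chow (0.14 ± 0.14, adjusted p = 0.98). Ins2, an insulin gene and defining beta cell marker, had group means between 11.26 and 11.93, far above the array medians of 4.80 to 4.96. Arrays limit precision by their number, 3 a group here.

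Ldha (probe set 17478225), the lactate dehydrogenase subunit that favours lactate formation, read 6.65, 6.24 and 6.83 in chow TRAF3 knockouts, 6.79, 5.66 and 5.56 in chow TRAF2 knockouts and 4.76, 5.14 and 5.35 in chow controls. Every array of both knockouts therefore lay above every chow control, although 2 of the 3 TRAF2 arrays did so by little and the first by more than 1 log2 unit. On chow, knockout and control groups were apart in either direction for 31.0% (TRAF3) and 9.49% (TRAF2) of all genes. The TRAF3 knockout was 2.81-fold higher (log2 difference 1.49 ± 0.29 SE, limma adjusted p = 0.00519), whereas the TRAF2 knockout did not pass (0.92 ± 0.29, adjusted p = 0.396). The chow control mean of 5.08 was close to the array medians of 4.80 to 4.96, so the size of these differences is uncertain. On HFD, Ldha read 5.27, 5.53 and 5.85 in TRAF3 knockouts, 5.39, 5.74 and 5.83 in TRAF2 knockouts and 5.43, 5.72 and 6.16 in controls. The 3 HFD groups overlapped throughout, with log2 differences from control of -0.22 ± 0.29 (TRAF3, adjusted p = 0.798) and -0.11 ± 0.29 (TRAF2, adjusted p = 0.99).

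Slc16a1 (probe set 17401335), the transporter MCT1 that carries lactate and pyruvate across the plasma membrane, showed the largest difference of the 10 genes. It read 8.13, 7.35 and 8.60 in chow TRAF3 knockouts, 7.31, 6.09 and 5.90 in chow TRAF2 knockouts and 5.10, 6.24 and 6.35 in chow controls. All 3 TRAF3 arrays were above all others on chow, while those of the TRAF2 knockout overlapped the controls. The TRAF3 knockout was 4.38-fold higher than control (2.13 ± 0.39, adjusted p = 0.00366), and the TRAF2 knockout did not pass (0.54 ± 0.39, adjusted p = 0.932). On HFD the values were 6.33, 6.73 and 6.70 in TRAF3 knockouts, 6.03, 6.56 and 6.27 in TRAF2 knockouts and 6.17, 5.93 and 6.58 in controls, with overlap between all 3 groups (adjusted p = 0.735 and 0.995 for TRAF3 and TRAF2 against control).

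Acot7 (probe set 17422117), a thioesterase that splits fatty acyl-CoA into free fatty acid and CoA, read 7.09, 6.74 and 7.69 in chow TRAF3 knockouts, 6.75, 6.10 and 5.77 in chow TRAF2 knockouts and 6.28, 6.15 and 6.41 in chow controls. The TRAF3 arrays lay above all controls, and the TRAF2 arrays spread on both sides of them. The TRAF3 knockout was 1.86-fold higher (0.89 ± 0.24, adjusted p = 0.0255), and the TRAF2 knockout was not (-0.08 ± 0.24, adjusted p = 1). The TRAF3 difference no longer passed without TRAF3 knockout replicate 1 or 3 or control replicate 1 or 2 on chow (adjusted p over all 6 single omissions from 0.0119 to 0.152), with a ductal (0.67, adjusted p = 0.172) or macrophage (0.76, adjusted p = 0.1) marker score as a covariate, within the males (0.94, adjusted p = 0.107) or with only the arrays compared (adjusted p = 0.054). On HFD, Acot7 lay between 6.06 and 6.45 in TRAF3 knockouts, between 6.12 and 6.44 in TRAF2 knockouts and between 6.34 and 6.63 in controls.

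Mgst1 and Cat act on peroxides: Mgst1 is a membrane-bound glutathione transferase that also reduces lipid peroxides, and catalase (Cat) breaks down hydrogen peroxide. Mgst1 (probe set 17463909) read 6.60, 6.62 and 7.41 in chow TRAF3 knockouts, 6.48, 5.67 and 6.03 in chow TRAF2 knockouts and 5.51, 5.50 and 5.63 in chow controls. Both knockouts lay wholly above the controls on chow, the TRAF3 knockout by 2.51-fold (1.33 ± 0.23, adjusted p = 0.00292), while the TRAF2 difference did not pass (0.51 ± 0.23, adjusted p = 0.752). Groups were apart in either direction for 31.0% (TRAF3) and 9.49% (TRAF2) of all genes there. The control mean of 5.55 was not far above the array medians, so the size of these differences is uncertain. On HFD it read 6.33, 5.75 and 5.69 in TRAF3 knockouts, 6.54, 6.33 and 6.29 in TRAF2 knockouts and 5.89, 5.93 and 6.12 in controls. The TRAF2 arrays alone were all above the HFD controls, but that difference did not pass (0.41 ± 0.23, adjusted p = 0.951), and 14.7% of all genes had groups apart there. Cat (probe set 17388803) read 10.20, 9.87 and 10.64 in chow TRAF3 knockouts, 10.29, 9.06 and 8.17 in chow TRAF2 knockouts and 8.84, 8.79 and 9.37 in chow controls. The TRAF3 arrays were above all chow controls, yet the difference missed the threshold (1.23 ± 0.41, adjusted p = 0.0633), and it passed when the lymphocyte-rich arrays were left out of the fit (adjusted p = 0.0146). On HFD, Cat was 9.36, 9.18 and 9.82 in TRAF3 knockouts, 9.75, 9.75 and 9.92 in TRAF2 knockouts and 9.65, 9.80 and 10.76 in controls, without a pass (adjusted p = 0.524 for TRAF3 and 0.983 for TRAF2).

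Oat (probe set 17497091) is the mitochondrial ornithine aminotransferase. It read 8.25, 8.31 and 8.32 in HFD TRAF3 knockouts, 8.35, 8.62 and 8.53 in HFD TRAF2 knockouts and 8.63, 8.48 and 8.85 in HFD controls. On chow it was 8.40, 7.95 and 8.28 in TRAF3 knockouts, 8.70, 8.11 and 7.73 in TRAF2 knockouts and 7.49, 7.12 and 8.20 in controls. The HFD TRAF3 arrays lay below all HFD controls without a pass (-0.36 ± 0.25, adjusted p = 0.546), where 16.6% of all genes had groups apart in either direction. The chow controls had the lowest mean, and the HFD controls lay wholly above them (1.05 ± 0.25), but the difference missed the threshold (adjusted p = 0.0578). Without chow control replicate 3 it passed (1.35, adjusted p = 0.031), as did the TRAF3 knockout against control on chow (0.90, adjusted p = 0.0223, against 0.60 and 0.14 with that array).

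Smad3 (probe set 17528111), which carries TGF-beta signals to the nucleus, had wide spreads within groups. It read 8.32, 7.69 and 8.84 in chow TRAF3 knockouts, 8.12, 7.72 and 6.22 in chow TRAF2 knockouts and 6.12, 7.69 and 8.33 in chow controls, so that all 3 groups overlapped. On HFD, Smad3 was 6.87, 6.81 and 8.59 in TRAF3 knockouts, 6.96, 7.13 and 7.16 in TRAF2 knockouts and 6.78, 6.82 and 7.36 in controls, and the third HFD TRAF3 knockout array stood more than 1 log2 unit above its group. No comparison of Smad3 passed, and the SE of a difference between groups was 0.57. With an acinar marker score as a covariate it passed in the TRAF3 knockout against control on chow (1.35, adjusted p = 0.0201, against 0.90 without the score) and over both knockouts and diets (0.85, adjusted p = 0.0478, against 0.35).

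Pdgfra, a receptor for platelet-derived growth factors that mesenchymal cells carry, and Igfbp4, a secreted protein that binds insulin-like growth factors, are expressed strongly by cells other than beta cells. Pdgfra (probe set 17438246) read 6.84, 5.63 and 6.49 in chow TRAF3 knockouts, 7.19, 4.51 and 4.72 in chow TRAF2 knockouts and 4.75, 4.20 and 5.02 in chow controls. The TRAF3 arrays were all above the chow controls, but the difference did not pass (1.66 ± 0.56, adjusted p = 0.0686), and the mean of the chow controls (4.66) was lower than all 18 array medians, so its size is uncertain. It passed without the lymphocyte-rich arrays (adjusted p = 0.00658), a fit that leaves out none of the arrays compared. On HFD, Pdgfra read 6.07, 6.16 and 4.90 in TRAF3 knockouts, 6.28, 5.98 and 6.39 in TRAF2 knockouts and 5.51, 5.90 and 4.88 in controls. The TRAF2 arrays lay above all HFD controls, without a pass (0.79 ± 0.56, adjusted p = 0.97), where 14.7% of all genes had groups apart in either direction. The TRAF3 knockout on HFD differed by 0.28 ± 0.56 (adjusted p = 0.875), and passed with a macrophage score as a covariate (1.63, adjusted p = 0.0358). Igfbp4 (probe set 17256264) was 7.50, 8.48 and 6.74 in HFD TRAF3 knockouts, 8.24, 8.39 and 8.18 in HFD TRAF2 knockouts and 8.00, 8.36 and 7.64 in HFD controls. On chow it read 7.60, 6.85 and 7.25 in TRAF3 knockouts, 7.72, 6.93 and 6.35 in TRAF2 knockouts and 7.06, 6.54 and 6.97 in controls, so that knockouts and controls overlapped on each diet.

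Aldh1a3 (probe set 17491941), the dedifferentiation marker, passed in none of the 12 comparisons. It read 5.81, 6.10 and 5.70 in chow TRAF3 knockouts, 6.15, 5.78 and 6.50 in chow TRAF2 knockouts and 5.12, 5.80 and 5.58 in chow controls. The chow TRAF2 knockouts had the highest mean (6.14 ± 0.36, SD, n = 3), against 5.87 ± 0.21 in chow TRAF3 knockouts and 5.50 ± 0.35 in chow controls. Neither difference from control passed (TRAF3 0.37 ± 0.22, adjusted p = 0.345; TRAF2 0.64 ± 0.22, adjusted p = 0.485). On HFD it lay between 4.90 and 5.72 in TRAF3 knockouts, between 5.34 and 5.62 in TRAF2 knockouts and between 5.39 and 5.50 in controls. Its group means, from 5.33 (HFD TRAF3 knockouts) to 6.14, were not far above the array medians of 4.80 to 4.96. Low signal therefore limits what the lack of a pass can show.

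Counted over the 10 genes, 4 were called higher and 0 lower in the TRAF3 knockout on chow, where 11.0% of all genes were called. The median log2 difference of the 10 was 1.07, against -0.01 over all genes, and 6 of the 10 had TRAF3 arrays wholly above the controls, where 31.0% of all genes had groups that did not overlap in either direction. In the TRAF2 knockout on chow 0 members were called, where 0.298% of all genes were. An unadjusted limma p under 0.05 was found for 4 members and for 1429 of all 22180 genes. The median of the 10 members was 0.52, against -0.02 over all genes, with 8 of 10 differences positive. The first array of that group carries these values. It is lymphocyte-rich and the only female array of the group. Its score of beta cell identity markers, defined below, was -0.649, against 0.105 and 0.327 in replicates 2 and 3. Which of these features matters was not tested. Without this array the median was 0.03 and 5 differences were positive. Ldha was then at 0.53, Mgst1 at 0.30, Slc16a1 at 0.10, Pdgfra at -0.04 and Cat at -0.39, against 0.92, 0.51, 0.54, 0.82 and 0.17 with it. With all arrays, 2 members had TRAF2 arrays wholly above the chow controls, where 9.49% of all genes had groups apart in either direction. On HFD 0 members were called in the TRAF3 knockout (2.52% of all genes) and 0 in the TRAF2 knockout (0.252%). In either, 0 members had an unadjusted p under 0.05, as 3338 (TRAF3) and 1266 (TRAF2) of all 22180 genes did. Groups were apart for 1 member in the TRAF3 knockout (lower) and 2 in the TRAF2 knockout (higher), where 16.6% and 14.7% of all genes were. Without the lymphocyte-rich HFD TRAF3 knockout 2 no member was called in that group either, and the median over the members was -0.17, against -0.16 with it. With both knockouts set against control over both diets, all 10 differences were positive (9 without either lymphocyte-rich array) and 1 was called, where 2.80% of all genes were. This was Mgst1 (0.55 ± 0.14, adjusted p = 0.0482), and it passed in only 3 of the 18 fits that left out 1 array (HFD TRAF3 knockout 3, chow TRAF3 knockout 2 or chow TRAF2 knockout 2), with adjusted p from 0.0272 to 0.12 over the 18. The knockouts share their controls within a diet, so these comparisons are not independent.

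**Figure D2:**
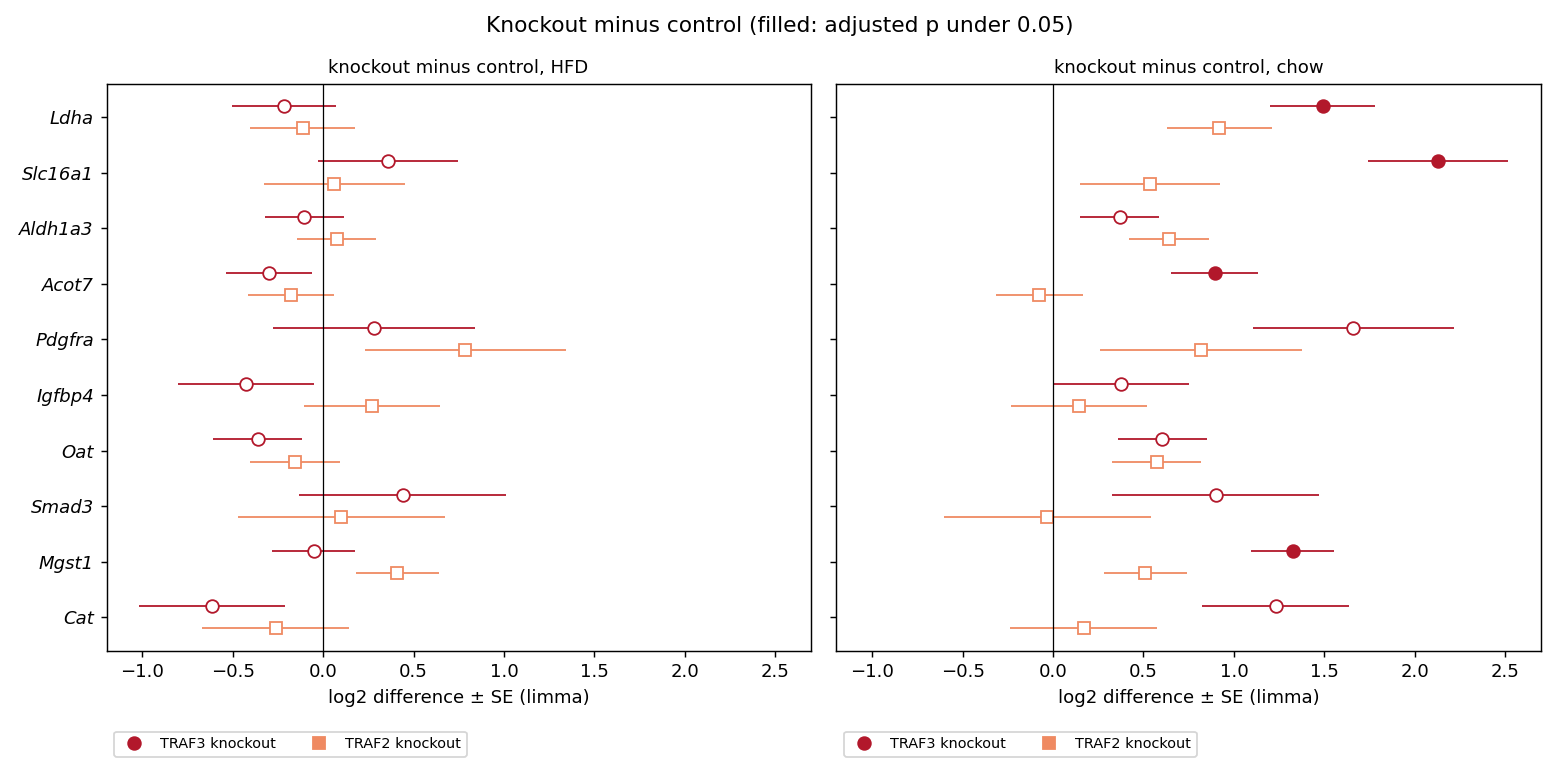
Log2 differences between knockout and control (horizontal axes, limma, bars ± SE) for the 10 genes, on HFD at left and on chow at right, with TRAF3 knockouts as circles and TRAF2 knockouts as squares; filled symbols passed at an adjusted p under 0.05. The 4 filled symbols are Ldha, Slc16a1, Acot7 and Mgst1 in chow TRAF3 knockouts, with differences of 0.89 to 2.13, and no symbol is filled on HFD.

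Set directly against the TRAF2 knockout on chow, the TRAF3 knockout had higher Slc16a1 (3.02-fold, log2 difference 1.59 ± 0.39, adjusted p = 0.0463) and Acot7 (1.96-fold, 0.97 ± 0.24, adjusted p = 0.0489). These were 2 of the 10 genes, where 2.01% of all genes were called. The first chow TRAF2 knockout array carries much of the spread: without it 6 members were called, with Ldha at 0.96, Mgst1 at 1.02, Cat at 1.62 and Pdgfra at 1.70 besides the first pair. Without either of the other 2 arrays of that group, or without chow TRAF3 knockout 1 or 3, 0 were. The share of all genes called in these fits is not given here, so their counts cannot be set against it. With a ductal score as a covariate neither gene passed (Slc16a1 1.01, adjusted p = 0.2). On HFD 0 of the 10 differed between the knockouts (1.05% of all genes called), and 0 had an unadjusted p under 0.05, against 2482 of all 22180 genes.

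In TRAF3 knockouts 4 of the 10 were called lower on HFD than on chow and 0 higher, where 8.67% of all genes were called. On the log2 scale Slc16a1 fell by 1.44 ± 0.39 (adjusted p = 0.0313), Ldha fell by 1.02 ± 0.29 (adjusted p = 0.0395), Acot7 fell by 0.98 ± 0.24 (adjusted p = 0.0192) and Mgst1 fell by 0.95 ± 0.23 (adjusted p = 0.019). All 3 HFD arrays lay below all 3 chow arrays for each of these 4 genes and for Cat (-0.78 ± 0.41, adjusted p = 0.288), where 25.3% of all genes had groups apart in either direction. The 4 calls were lost with a ductal score as a covariate (adjusted p from 0.0705 to 0.15) and when the fit held only the arrays compared (0.0523 to 0.114), and 0 remained without HFD TRAF3 knockout 2 or chow TRAF3 knockout 3 and 1 without replicate 1 of either group. With both lymphocyte-rich arrays left out all 4 passed (adjusted p from 0.0272 to 0.043). With a sex score as a covariate all 4 passed (adjusted p from 0.0136 to 0.0332). In controls 0 members were called between HFD and chow (0.884% of all genes), although 8 of 10 differences were positive and 5 members (Ldha, Igfbp4, Oat, Mgst1 and Cat) had HFD arrays wholly above the chow arrays, where 19.2% of all genes had groups apart in either direction. Igfbp4 (1.14 ± 0.38, adjusted p = 0.151), Cat (1.07 ± 0.41, adjusted p = 0.212) and Oat had the largest of these, and Igfbp4 (adjusted p = 0.033) and Oat (adjusted p = 0.0288) passed with the lymphocyte-rich arrays left out of the fit. In TRAF2 knockouts 0 were called (1.96% of all genes), with Igfbp4 highest at 1.27 ± 0.38 (adjusted p = 0.0999) and Aldh1a3 lowest at -0.63 ± 0.22 (adjusted p = 0.166), each with groups that did not overlap, as for 23.9% of all genes. Without the first chow TRAF2 knockout array Igfbp4 passed there (1.63, adjusted p = 0.0355), and with both lymphocyte-rich arrays left out Pdgfra did too (1.60, adjusted p = 0.0401).

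**Figure D3:**
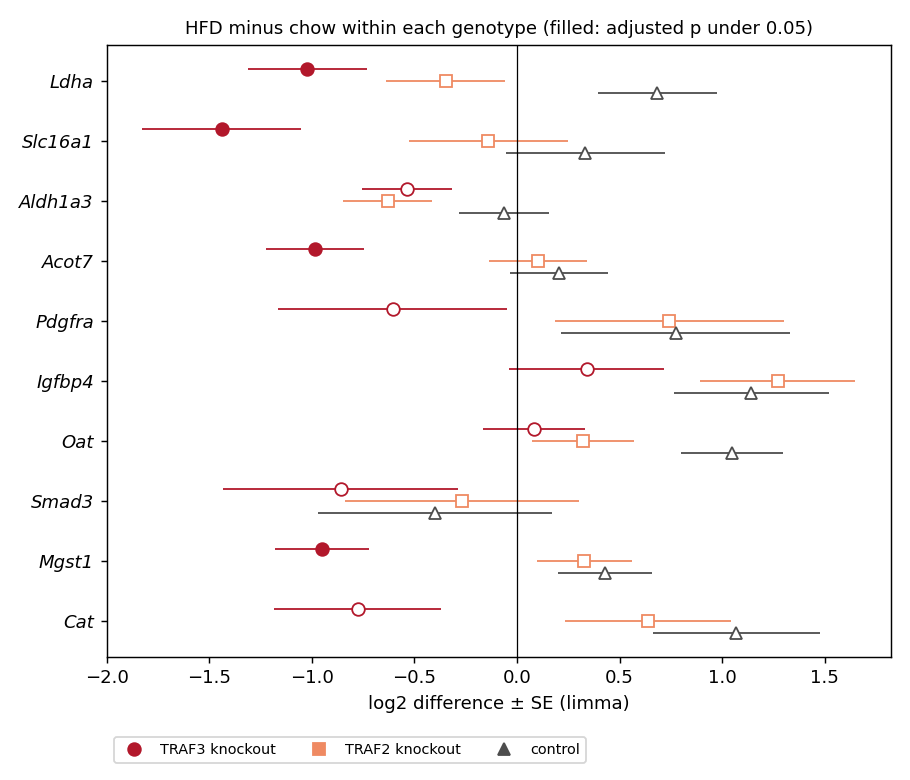
Log2 differences between HFD and chow (horizontal axis, limma, bars ± SE) for the 10 genes within TRAF3 knockouts (circles), TRAF2 knockouts (squares) and controls (triangles); filled symbols passed at an adjusted p under 0.05. Only the TRAF3 symbols of Ldha, Slc16a1, Acot7 and Mgst1 are filled, at -1.44 to -0.95, and the control symbols of 8 genes lie above 0.

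The difference between the diet effects was tested as an interaction. For the TRAF3 knockout all 10 interactions were negative, with a median of -1.28 against -0.01 over all genes, and 2 were called, where 5.80% of all genes were. Ldha had an interaction of -1.71 ± 0.41 (adjusted p = 0.0256) and Mgst1 of -1.38 ± 0.33 (adjusted p = 0.0242). Acot7 (-1.19 ± 0.34, adjusted p = 0.05), Slc16a1 (-1.77 ± 0.55, adjusted p = 0.0696) and Cat (-1.85 ± 0.57, adjusted p = 0.0702) did not pass, but did without the lymphocyte-rich arrays (adjusted p from 0.0371 to 0.0427 for Slc16a1 and Cat, 0.043 for Acot7). The Ldha call was lost in 7 and the Mgst1 call in 4 of the 12 fits without 1 array: both without HFD TRAF3 knockout 2, chow TRAF3 knockout 3, HFD control 3 or chow control 2, and Ldha also without replicate 1 of HFD TRAF3 knockouts, chow TRAF3 knockouts or chow controls. Both calls were lost with a macrophage score as a covariate (Ldha -1.58, adjusted p = 0.113; Mgst1 -0.96, adjusted p = 0.184). For the TRAF2 knockout 0 of the 10 interactions were called by limma, as were 0 of all genes (0%), and 628 genes had an unadjusted p under 0.05. Ldha alone among the members did (-1.03 ± 0.41, and -0.64 without the first chow TRAF2 knockout array).

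The other genes of lactate and pyruvate handling, listed with earlier results of these data known, went both ways in the chow TRAF3 knockout: of 18 measured, 5 rose and 2 fell against control, where 11.0% of all genes were called. Pfkfb3, which makes the activator of phosphofructokinase, rose by 1.30 ± 0.34 (adjusted p = 0.024). Slc16a3, the lactate exporter MCT4, rose by 1.26 ± 0.27 (adjusted p = 0.00789), and Pfkp, a phosphofructokinase, rose by 1.19 ± 0.28 (adjusted p = 0.014). The median of the list was 0.13, against -0.01 over all genes. Slc16a3 also rose in the TRAF2 knockout on chow (1.42 ± 0.27, adjusted p = 0.0302), with a mean of 7.18 ± 0.37 against 5.76 ± 0.66 in controls (SD, n = 3). On HFD 0 of 18 passed in either knockout, where 2.52% (TRAF3) and 0.252% (TRAF2) of all genes were called. Over both knockouts and diets Pfkfb3 (0.86), Pfkp (0.83) and Slc16a3 (0.72) passed, with adjusted p of 0.0157 to 0.0382, and Pdk2, a kinase that inhibits pyruvate dehydrogenase, was lower (-0.40, adjusted p = 0.0376). The list median there was -0.01, against -0.01 over all genes, and 2.80% of all genes were called. Between HFD and chow in TRAF3 knockouts 1 of 18 rose and 3 fell, where 8.67% of all genes were called. The falls were led by Pfkp (-1.20 ± 0.28, adjusted p = 0.0167), while Pdk2 rose by 0.80 ± 0.16 (adjusted p = 0.0068).

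Of 20 other antioxidant enzymes measured, 10 rose and 0 fell in the chow TRAF3 knockout, where 11.0% of all genes were called. Their median was 0.52, against -0.01 over all genes. Gclc, the catalytic subunit for glutathione synthesis, rose by 2.04 ± 0.40 (adjusted p = 0.00545), the haem oxygenase Hmox1 by 2.01 ± 0.57 (adjusted p = 0.0347) and the quinone reductase Nqo1 by 1.64 ± 0.36 (adjusted p = 0.00999). On HFD 0 of the 20 passed in either knockout, where 2.52% (TRAF3) and 0.252% (TRAF2) of all genes were called. Between HFD and chow in TRAF3 knockouts, where 8.67% of all genes were called, 5 fell and 0 rose, with Gclc at -2.06 ± 0.40 (adjusted p = 0.00625). Gclc was also lower on HFD in TRAF2 knockouts (-2.05 ± 0.40, adjusted p = 0.0148).

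**Figure D4:**
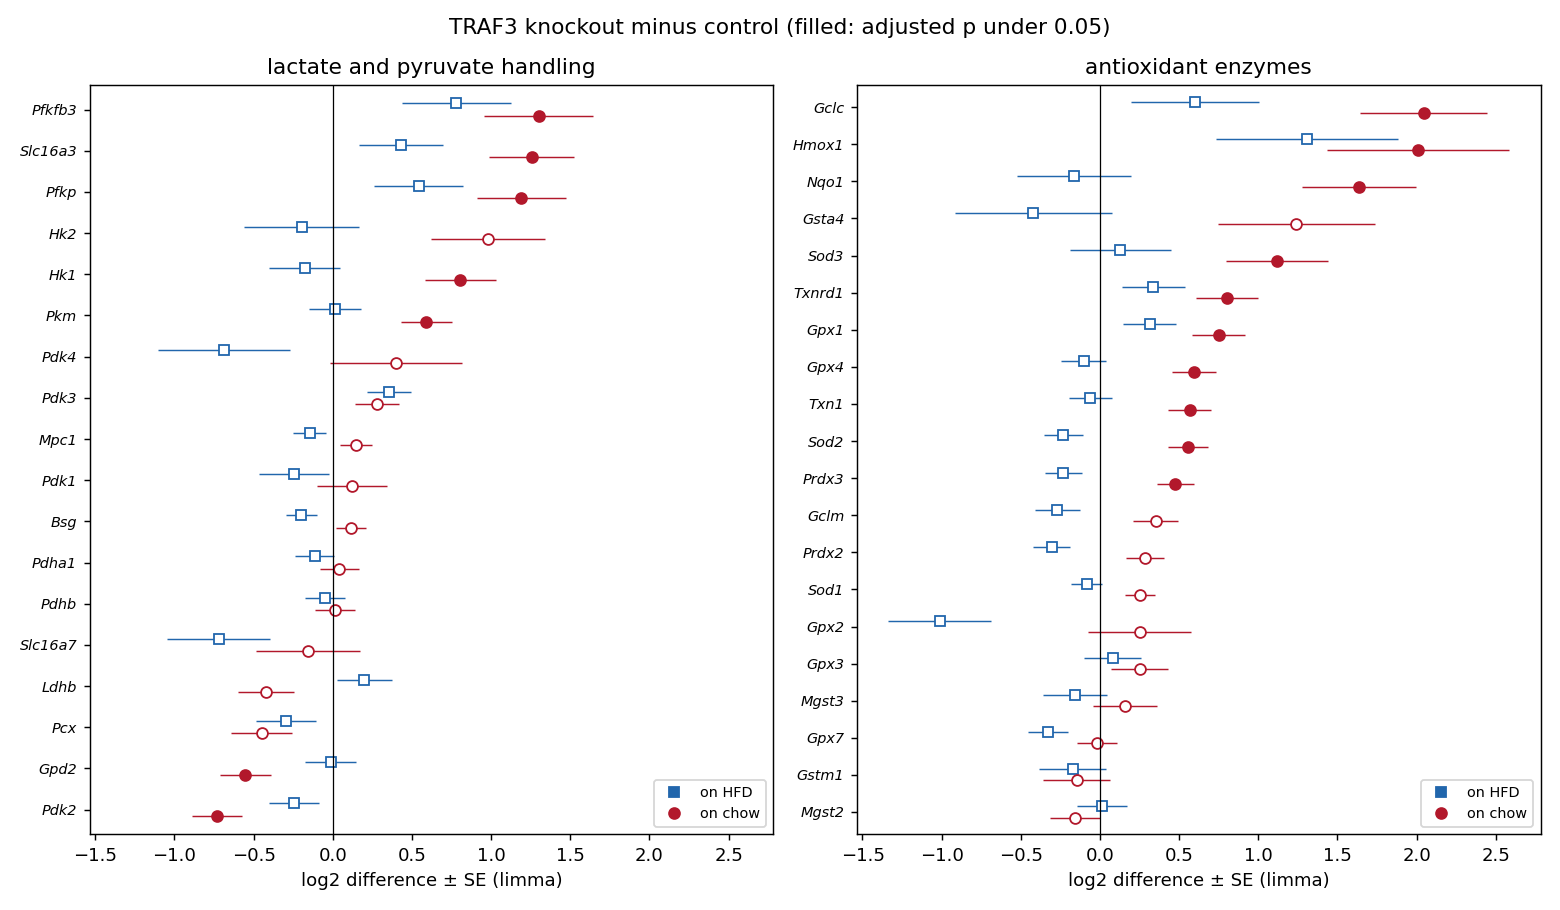
Log2 differences between TRAF3 knockout and control (horizontal axes, limma, bars ± SE) for 18 genes of lactate and pyruvate handling at left and 20 antioxidant enzymes at right, on HFD (squares) and on chow (circles); filled symbols passed at an adjusted p under 0.05. On chow 7 and 10 symbols are filled, with Gclc at 2.04 the highest, and on HFD 0 are.

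Of 19 other disallowed genes measured, 2 rose in the chow TRAF3 knockout, Parp3 (1.05 ± 0.18, adjusted p = 0.00267) and Zdhhc9, a palmitoyltransferase (0.82 ± 0.23, adjusted p = 0.0309), and 0 fell, a share near the 11.0% of all genes called; the list median was 0.54. In controls, 2 of 19 were higher on HFD than on chow: Fcgrt, the neonatal Fc receptor (1.86 ± 0.36, adjusted p = 0.0241), and the lectin-like receptor Cd302 (0.82 ± 0.18, adjusted p = 0.0437), where 0.884% of all genes were called. None of 14 genes of endocrine progenitors and immature beta cells passed limma's test between the chow TRAF3 knockout and control. Among 11 genes of retinoid metabolism, Rdh10, which oxidises retinol in the step before the Aldh1a enzymes, rose by 1.15 ± 0.21 (adjusted p = 0.00413). Of 16 genes of TGF-beta and SMAD signalling 2 rose and 2 fell, among them the ligand Tgfb1 (1.38 ± 0.33, adjusted p = 0.0148) and the co-receptor Tgfbr3 (-0.998 ± 0.22, adjusted p = 0.0104). Of 14 genes of PDGF and IGF binding 1 rose, the ligand Pdgfb (0.99 ± 0.26, adjusted p = 0.0207), and 1 fell, Igfbp7 (-0.84 ± 0.17, adjusted p = 0.00708). In that list Igfbp5 passed in the TRAF2 knockout on HFD (1.30 ± 0.21, adjusted p = 0.0109) and on chow (1.55 ± 0.21, adjusted p = 0.00523), where Igfbp4 did not.

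Markers of several cell types were read beside the members, on chow against the 11.0% of all genes called there. In the chow TRAF3 knockout 10 of 14 beta cell identity genes fell and 0 rose, led by the glucose transporter Slc2a2 (-2.97 ± 0.52, adjusted p = 0.00313), Ucn3, a marker of mature beta cells (-2.04 ± 0.37, adjusted p = 0.00376) and the zinc transporter Slc30a8 (-1.98 ± 0.33, adjusted p = 0.00233). The score of these markers, the mean deviation of each from its mean over all arrays, ran from -1.14 to -0.46 in chow TRAF3 knockouts and from 0.08 to 0.49 in chow controls. Markers of other islet endocrine cells were lower as well: 3 of 8 fell and 0 rose, namely Slc7a2 (-1.16 ± 0.23, adjusted p = 0.0062), Ghrl, the ghrelin gene (-0.90 ± 0.23, adjusted p = 0.0204) and Ttr, transthyretin (-0.87 ± 0.17, adjusted p = 0.00553). The median of that list was -0.57, and its score ran from -0.60 to -0.22 in chow TRAF3 knockouts and from -0.01 to 0.52 in chow controls. In bulk islets fewer cells of a type and less RNA per cell cannot be told apart. Between HFD and chow in TRAF3 knockouts 10 of the 14 beta cell identity genes rose, where 8.67% of all genes were called. Slc2a2 rose by 2.61 ± 0.52 (adjusted p = 0.00719), while Ldha, Slc16a1, Acot7 and Mgst1 fell. Of the ductal markers 1 of 10 rose on chow (Anxa3, 2.71 ± 0.53, adjusted p = 0.00517), a share near that of all genes. Their median difference between chow TRAF3 knockouts and controls was 0.59, against -0.01 over all genes. The ductal score ran from 0.38 to 1.11 in chow TRAF3 knockouts and from -1.17 to 0.43 in chow controls, so the groups overlapped. Macrophage markers rose in 3 of 13 (Cd68, 2.51 ± 0.44, adjusted p = 0.00292), with scores of -0.23 to -0.08 in chow TRAF3 knockouts and -1.003 to -0.81 in chow controls. With the ductal score as a covariate the differences on chow were 1.10 for Ldha, 1.49 for Slc16a1 and 1.20 for Mgst1, and with the macrophage score 1.43, 1.90 and 1.13 in the same order of genes, all 6 with an adjusted p of 0.0192 to 0.042. Within the males on chow the differences were 1.29, 1.68 and 1.45 (adjusted p from 0.00985 to 0.0261). The part of beta cell number in these differences was not tested.

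Between HFD and chow in controls, where 0.884% of all genes were called, 8 of 13 macrophage markers rose, led by Mrc1 (3.13 ± 0.43, adjusted p = 0.00338). The macrophage score ran from 0.14 to 1.05 on HFD and from -1.003 to -0.81 on chow. In TRAF2 knockouts, where 1.96% of all genes were called, 6 of 13 rose on HFD, again with Mrc1 (2.94 ± 0.43, adjusted p = 0.00229). The score of stellate cells, fibroblasts and pericytes ran from -0.32 to 1.06 in HFD controls and from -0.55 to -0.16 in chow controls, with a list median difference of 0.86 and 1 of 12 markers called (Acta2, 2.31 ± 0.39, adjusted p = 0.017). In TRAF2 knockouts it ran from 0.44 to 0.60 on HFD and from -0.64 to 0.24 on chow, with Acta2 again called (3.52 ± 0.39, adjusted p = 0.00027). Igfbp4 did not pass in either comparison, and the part of macrophages, mesenchymal cells or other cell types in its differences was not tested. For the TRAF3 interaction 6 of 13 macrophage markers were lower, where 5.80% of all genes were called.

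Across the 18 arrays, which share groups and normalization, some members followed marker scores closely. Ldha ran against the beta cell identity score with Pearson's r of -0.91 (Spearman's rho -0.84), with -0.93 on deviations from group means and -0.87 without the 2 arrays farthest from the median score. Slc16a1 gave -0.93 (rho -0.73, within groups -0.85, without 2 arrays -0.81) and Acot7 gave -0.86 (rho -0.78, within groups -0.82, without 2 arrays -0.65). Slc16a1 also followed the ductal score, at 0.80 (rho 0.73, within groups 0.73, without 2 arrays 0.61). Ldha did so at 0.63 (rho 0.47, within groups 0.60, without 2 arrays 0.35). Smad3 followed the ductal score at 0.92 (rho 0.94, within groups 0.90, without 2 arrays 0.89). Its most similar gene was the duct keratin Krt19 (r = 0.963), which is itself a marker in that score. Smad3 also gave -0.79 with beta cell identity (within groups -0.83) and -0.80 with other islet endocrine cells (within groups -0.85). Igfbp4 followed the macrophage score at 0.88 (rho 0.83, within groups 0.77, without 2 arrays 0.90) and the score of stellate cells, fibroblasts and pericytes at 0.90 (rho 0.85, within groups 0.81, without 2 arrays 0.94). It was not particular to these: lymphocytes gave 0.78 (rho 0.87, within groups 0.87, without 2 arrays 0.86). Adipocytes gave 0.80 (within groups 0.67) and endothelial cells gave 0.64 (within groups 0.69) with Igfbp4. Its most similar genes were Fn1, fibronectin (0.958), Cfp (0.947) and Lsp1 (0.929). With the score of other islet endocrine cells Ldha gave -0.77 (rho -0.64, within groups -0.59, without 2 arrays -0.58) and Slc16a1 gave -0.88 (rho -0.66, within groups -0.70, without 2 arrays -0.73). For Aldh1a3 the strongest were -0.53 with the acinar score (rho -0.53, within groups -0.43, without 2 arrays -0.60) and 0.51 with antioxidant enzymes (rho 0.58, within groups 0.20, without 2 arrays 0.43), and its r was -0.27 with beta cell identity.

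**Figure D5:**
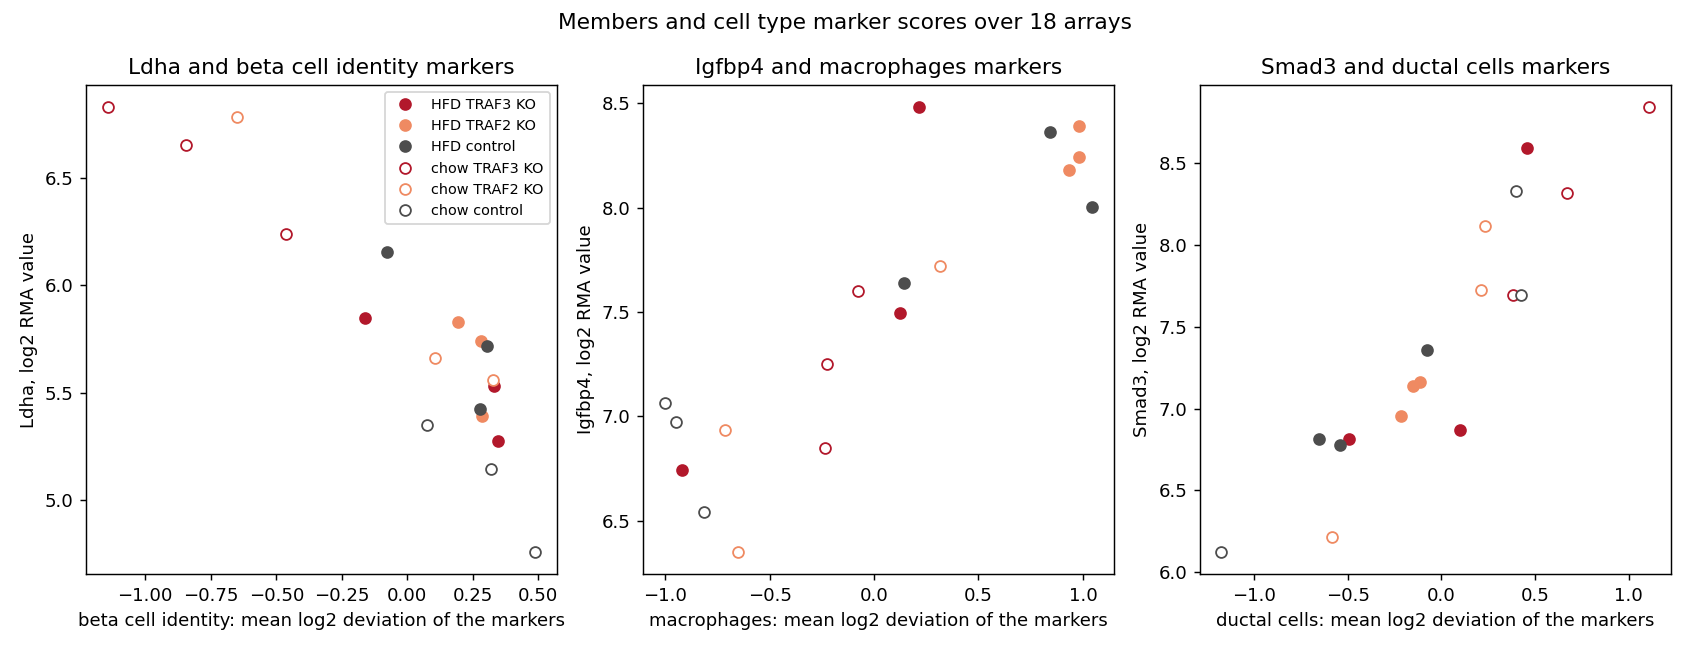
Log2 values (vertical axes) against marker scores (horizontal axes, mean log2 deviation of the markers from their mean over 18 arrays): Ldha with beta cell identity, Igfbp4 with macrophages and Smad3 with ductal cells, with HFD arrays filled and chow arrays open. Ldha falls as the identity score rises (r = -0.91), and the 3 chow TRAF3 knockout arrays hold 3 of the 4 lowest scores; Igfbp4 (r = 0.88) and Smad3 (r = 0.92) rise with their scores.

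Among themselves the 10 genes correlated positively in 40 of 45 pairs over the 18 arrays and in 38 of 45 pairs within groups. Ldha and Slc16a1 went together at r = 0.88 (rho 0.72, within groups 0.88, without the 2 arrays farthest in Ldha 0.84), at 0.92 over the 9 chow arrays and 0.38 over the 9 HFD arrays. Ldha and Cat had 0.75 over all arrays (rho 0.85) and 0.88 within groups. Pdgfra and Igfbp4 had 0.64 (rho 0.61, within groups 0.80). Over all arrays each was closer to another member, Pdgfra to Mgst1 (0.715, within groups 0.52) and Igfbp4 to Oat (0.69, within groups 0.45). The genes most like the others, by r over 18 arrays, were Plbd2, Rap2c and Ak4 for Ldha (0.914 to 0.917), Ciao2b, Nhp2 and Lrg1 for Slc16a1 (0.949 to 0.97), Stard3, Marcks and Emp2 for Acot7 (0.928 to 0.948), Spred1, Bri3 and Camk1 for Mgst1 (0.905 to 0.955) and Slc8b1, Dock1 and S1pr2 for Cat (0.918 to 0.95). Oat was most like Arrb1, Lfng and Ctsc (0.829 to 0.889), Pdgfra like Notch2, Sod3 and Sema4a (0.892 to 0.922), Smad3 after Krt19 like Clu and Nes (0.94 and 0.941) and Aldh1a3 like Uxs1, Klhl2 and Ccdc47 (0.821 to 0.859).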

How the data were processed

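Total RNA of islets was labelled with biotin from 250 ng and read on 18 single-colour whole-transcript arrays. The authors deposited 1 log2 value per probe set and array, made with RMA, and the submitters' processing notes also name limma, without versions; the genome build is not given in the sources used here. The values were used as deposited, with no filter on low signal and no renormalization.

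Of 41345 probe sets, 23521 had exactly 1 gene symbol in the platform annotation, 1814 had more than 1 and 16010 were unnamed. For the 1082 genes with several probe sets that of highest mean was kept, giving 22180 genes. The transcript of the TRAF3 gene is not reported here. limma 3.58.1 in R 4.3.3 (lmFit and eBayes) was fitted once over all 6 groups, with 12 residual and 3.69 prior degrees of freedom and 12 contrasts. P-values are two-sided with Benjamini-Hochberg adjustment across the genes of each contrast, and the fit was tested on simulated data. The SE is limma's moderated one and the SD is over 3 arrays.

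The members, the gene lists and the tests were chosen with earlier results of these data known. Named list genes are up to 3 that passed with the largest changes, and Ins2 was chosen after its values were seen, as were the correlations described and which groups and members are given array by array. The replicate numbers of the labels were tested for pairing: deviations of same-numbered arrays correlated at -0.549 to 0.529, with 16 of 45 pairs over 0.1. No steady pairing was seen, so none was used in the main fit, but 3 arrays a group cannot exclude it. On chow the numbers go with sex, since replicate 1 was the female array of each group. Alternatives were median centring, repeated quantile normalization, a trended robust eBayes prior, removal of dim genes (11090 genes and 8 of 10 members kept), every probe set, only the arrays compared, a replicate block, sex or ductal score as a covariate, and each array left out. Added after seeing the data were acinar and macrophage covariates, arrays of 1 sex within each diet, and the lymphocyte-rich arrays left out.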

Additional observations from a re-analysis of the deposited data

Results flagged for a closer look

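A test of the difference itself passed for 4 results. The diet effect on Ldha differed between the TRAF3 knockout and control (interaction -1.705 ± 0.41, limma adjusted p = 0.0256), as did that on Mgst1 (-1.377 ± 0.33, adjusted p = 0.0242). Ldha was lower on HFD than on chow on average in the TRAF3 knockout (-1.02) and higher in controls (0.68), and Mgst1 likewise (-0.95 and 0.43). On chow the effect of the TRAF3 knockout exceeded that of the TRAF2 knockout for Slc16a1 (1.595 ± 0.39, adjusted p = 0.0463) and for Acot7 (0.969 ± 0.24, adjusted p = 0.0489). Each of these last calls was lost in 4 of 6 fits without 1 array. The Ldha interaction was lost in 7 and the Mgst1 interaction in 4 of 12 such fits.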

How the results depend on the processing

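Of 13 member changes that passed, 3 passed in every leave-one-out fit and in all 13 other alternatives: Ldha, Slc16a1 and Mgst1 in the TRAF3 knockout against control on chow. None changed sign. The cause of the other shifts was not tested. For both knockouts against control the count of 1 became 0 with arrays centred on their median, quantile normalization again, every probe set, a sex, ductal or macrophage score, or the lymphocyte-rich arrays left out, and 3 with an acinar score; it ranged from 0 to 1 without single arrays. For HFD against chow in controls the count of 0 became 1 with centred arrays or dim genes left out, and 2 with a ductal score or without the lymphocyte-rich arrays (0 to 1 without single arrays). In TRAF2 knockouts it became 1 with an acinar score and 2 without the lymphocyte-rich arrays (0 to 1 without single arrays). In TRAF3 knockouts the count of 4 became 2 with every probe set and 0 with only the arrays compared or a ductal score (0 to 4 without single arrays). The TRAF3 by diet count of 2 became 5 with dim genes or the lymphocyte-rich arrays left out, 4 with only the arrays compared and 0 with a macrophage score (0 to 4 without single arrays). For TRAF3 against TRAF2 knockouts on chow the count of 2 became 0 with every probe set, only the arrays compared, the replicate block or a ductal score, 1 with a sex score and 6 without the lymphocyte-rich arrays (0 to 6 without single arrays). For the TRAF3 knockout against control on HFD it was 1 with a macrophage score (Pdgfra, 1.63, against 0.28). In the TRAF3 knockout on chow the count of 4 was 3 with a ductal or macrophage score or 1 sex, 5 with dim genes left out, only the arrays compared, a sex score or the replicate block (which added Pdgfra, adjusted p = 0.0495), 6 with an acinar score or without the lymphocyte-rich arrays, and 3 to 5 without single arrays. Signal near the array median limits Pdgfra and Aldh1a3. It also limits the size of the Ldha and Mgst1 differences on chow, where the control means were 5.08 and 5.55.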
